A study of Mus musculus with 12 samples.

Results

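Expression of the transcription factor gene Nfe2l2, which encodes NRF2, and of 9 antioxidant genes known as its targets was followed in mouse pancreas during cerulein-induced chronic pancreatitis. The genes were Nfe2l2, Nqo1, Hmox1, Gclc, Gclm, Txnrd1, Srxn1, Prdx1, Gstm1 and Gpx2, and 9 of these 10 are among the 18194 genes that have a probe set of their own on the array. For each gene the probe set annotated to that symbol alone with the highest mean over the 12 arrays was taken. RNA of whole pancreas was measured on Affymetrix arrays, 1 per mouse and 3 per group, in 8-week-old mice of 4 groups: C57BL6/J mice after cerulein, C57BL6/J mice after saline, C57BL6/NHsd mice after cerulein and C57BL6/NHsd mice after saline. The substrains came from Jackson and from Harlan and are called J and NHsd below. Cerulein is an analogue of cholecystokinin, a hormone of the gut that stimulates enzyme secretion by acinar cells, and repeated injection damages these cells. Saline mice are labelled female, the sex of cerulein mice is not labelled, and the dose and schedule of cerulein are not given in the sources used here.

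NRF2 is a basic leucine zipper protein that is made continuously and degraded quickly, because KEAP1 and the ubiquitin ligase scaffold CUL3 mark it for the proteasome. Oxidants and electrophiles modify KEAP1, so that NRF2 accumulates, pairs with a small MAF protein and binds the antioxidant response element upstream of its targets. The targets serve glutathione synthesis (Gclc, Gclm), the thioredoxin and peroxiredoxin cycle (Txnrd1, Srxn1, Prdx1), glutathione conjugation and peroxide removal (Gstm1, Gpx2), quinone reduction (Nqo1) and haem breakdown (Hmox1). Because NRF2 is controlled largely as a protein, the transcript level of Nfe2l2 is not a measure of its activity.

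The core of the response element was searched as TGACNNNGC and as TGAGNNNGC on both strands of the 250 bases upstream of annotated start sites, in RefSeq sequence of build GRCm38.p6. Windows were held for 8 of the 10 genes, 11 windows in all. A match stood in 1 window each of 5 genes, and 23.0% of all 32851 windows of the same length held one. The sequences below show where these letters lie in the genes whose signals are described next, with the match in capitals, and match positions are counted in bases upstream of the start site.
Nfe2l2: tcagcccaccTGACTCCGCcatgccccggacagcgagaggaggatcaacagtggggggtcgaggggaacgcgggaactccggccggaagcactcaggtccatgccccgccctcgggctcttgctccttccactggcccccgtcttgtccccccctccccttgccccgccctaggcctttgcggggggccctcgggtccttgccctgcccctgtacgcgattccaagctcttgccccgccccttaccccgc
Srxn1: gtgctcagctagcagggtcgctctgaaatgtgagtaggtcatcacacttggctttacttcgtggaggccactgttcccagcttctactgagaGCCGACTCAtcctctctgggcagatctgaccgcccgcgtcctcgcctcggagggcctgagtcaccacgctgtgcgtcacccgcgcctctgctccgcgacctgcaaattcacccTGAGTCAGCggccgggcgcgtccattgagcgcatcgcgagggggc
Prdx1: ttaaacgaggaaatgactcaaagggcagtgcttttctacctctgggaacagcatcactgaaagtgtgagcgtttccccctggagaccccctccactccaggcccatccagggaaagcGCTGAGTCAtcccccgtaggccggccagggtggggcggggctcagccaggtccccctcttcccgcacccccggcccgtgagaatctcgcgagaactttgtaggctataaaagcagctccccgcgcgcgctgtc
Txnrd1: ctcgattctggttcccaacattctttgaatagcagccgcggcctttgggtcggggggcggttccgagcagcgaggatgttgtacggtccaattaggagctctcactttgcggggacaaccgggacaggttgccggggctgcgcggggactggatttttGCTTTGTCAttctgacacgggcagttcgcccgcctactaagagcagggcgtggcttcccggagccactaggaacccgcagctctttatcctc
Gclm: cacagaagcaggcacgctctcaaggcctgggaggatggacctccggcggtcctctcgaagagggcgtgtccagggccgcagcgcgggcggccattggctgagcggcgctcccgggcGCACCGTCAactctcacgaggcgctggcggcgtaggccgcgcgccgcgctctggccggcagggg
The Nfe2l2 window is chr2:75704664-75704913 on the minus strand. On the plus strand, the Srxn1 window is chr2:152105274-152105523, the Prdx1 window chr4:116685349-116685598, the Txnrd1 window chr10:82858956-82859205 and the Gclm window chr3:122245307-122245486. The Txnrd1 window is upstream of an internal start site, and the windows of its other 2 annotated start sites held no match. The Gclm sequence stops 71 bases before its start site, where the annotated gene begins. The Srxn1 window held TGAGTCAGC 45 bases upstream, which also contains TGAGTCA, the motif of AP-1 proteins, a second match on the other strand 158 bases upstream, and a further AP-1 motif 102 bases upstream. The Prdx1 match 133 bases upstream likewise overlaps an AP-1 motif, and a further one lies 237 bases upstream, a motif present in 4.46% of all windows. A match is a description of letters and shows neither binding nor a cause.

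The 9 genes with a probe set of their own had 20 between them, and 7 genes passed the filter on low signal, a log2 signal above 4 on at least 3 arrays. These 7, Nfe2l2, Gclc, Gclm, Txnrd1, Srxn1, Gstm1 and Gpx2, were tested in 1 fit with all other genes that passed, 8505 in all. Nqo1 and Hmox1 did not pass, and all 5 probe sets of Prdx1 were annotated also to Gm21399. The median change of all 8505 tested genes after cerulein was 0.49 on the log2 scale. Rises called among the 7 genes over both substrains are therefore also read against that shift below. Control RNA added at hybridization moved the other way, and its 9 probe sets averaged log2 7.51 ± 0.14 on cerulein arrays and 9.33 ± 0.42 on saline arrays (SD, n = 6 each). The 12 probe sets of added poly-A control RNA averaged 7.49 ± 0.58 on cerulein arrays and 10.17 ± 0.42 on saline arrays. Among the J cerulein arrays this second control spread from 7.13 to 8.67. The 3′ minus 5′ signal of Gapdh, a sign of RNA degradation, was 0.83 ± 0.13 on cerulein arrays and 1.22 ± 0.20 on saline arrays, also as log2. The labels name no batch, and array handling and treatment cannot be told apart. The labels do not say more of how the mice of a group relate, so the p-values measure the spread between these mice. J cerulein replicate 1 had the lowest mean correlation with the other arrays of its group, 0.951, against 0.969 to 0.985 for the other 11 arrays.

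**Figure D1:**
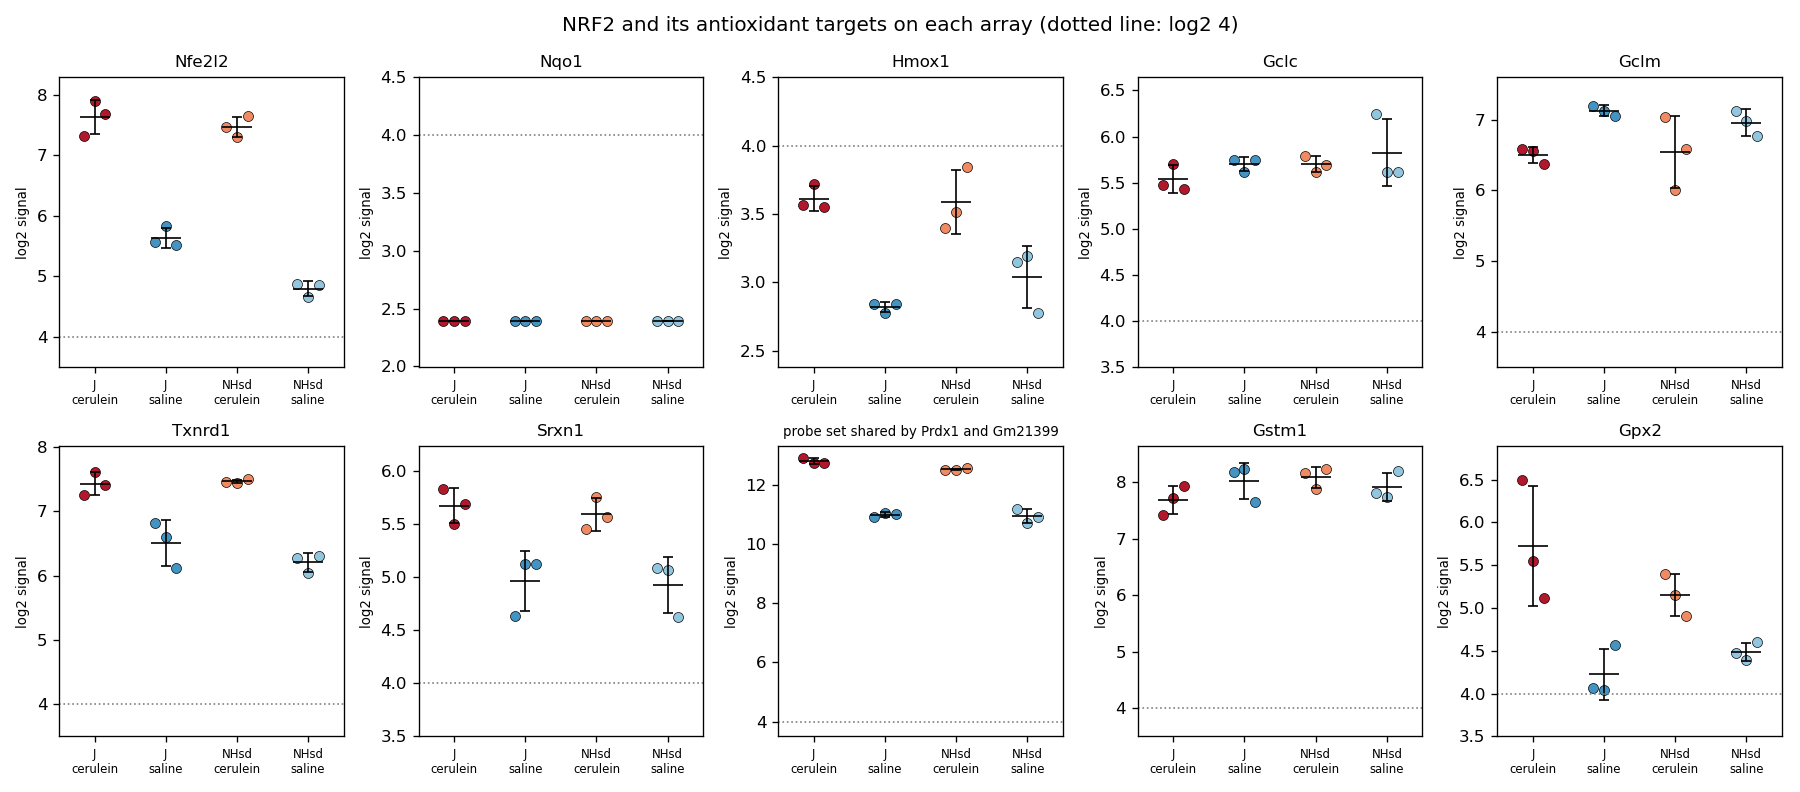
Log2 signal (vertical axis, a separate range per panel) of each gene on the 12 arrays, by group, where points are mice and bars give the mean ± SD of 3. Nfe2l2 lies between 7.30 and 7.89 on the cerulein arrays and between 4.66 and 5.83 on the saline arrays, Nqo1 stays at 2.39, and the Prdx1 panel shows the brightest probe set shared with Gm21399.

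The first question was which of these genes changed with pancreatitis. Nfe2l2 rose 5.03-fold over both substrains, with smaller rises of Txnrd1, Gpx2 and Srxn1, while Gclm fell to 0.698 of its saline level and Gclc and Gstm1 did not pass the test. Of the 7 tested genes 4 were called higher and 1 lower by limma, called meaning an adjusted p (Benjamini-Hochberg) under 0.05. Among all tested genes 59.4% were called higher and 10.1% lower in this comparison, 69.4% in either direction, so the share of called genes in the set is near that of genes in general. In J 4 of the 7 were higher and 1 lower, against 47.8% and 7.61% of all tested genes (55.4% in either direction). In NHsd 3 were higher and 0 lower, against 48.7% and 6.6% (55.3% in either direction). The median change of the 7 genes was 0.69 log2, against 0.49 for all tested genes. In RNA of whole tissue, more transcript per cell and more cells that hold it cannot be told apart.

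Nfe2l2, on chromosome 2 (chr2:75675513-75704663), read log2 7.32, 7.89 and 7.69 in J cerulein mice, against 5.56, 5.83 and 5.51 in J saline mice. It read 7.46, 7.30 and 7.64 in NHsd cerulein mice, against 4.88, 4.66 and 4.86 in NHsd saline mice. All 6 cerulein arrays lay above all 6 saline arrays, which also held for 40% of all tested genes. The change over both substrains was 2.33 log2 (SE 0.12; limma adjusted p = 2.13e-08), or 1.85 above the median gene, and higher than that of 97.4% of tested genes. It was 2.00 in J (SE 0.17; adjusted p = 2.80e-06) and 2.67 in NHsd (SE 0.17; adjusted p = 5.23e-07). A second Nfe2l2 probe set stayed between 2.61 and 3.48 on all arrays, under the filter.

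In the thioredoxin and peroxiredoxin branch both tested genes rose. Txnrd1 (chr10:82833951-82897724) encodes the cytosolic selenoprotein that returns thioredoxin to its reduced form with NADPH. Its signal was 7.26, 7.61 and 7.41 in J cerulein mice, against 6.82, 6.61 and 6.12 in J saline mice. In NHsd mice it was 7.45, 7.45 and 7.50 after cerulein, against 6.27, 6.03 and 6.31 after saline. The cerulein and saline arrays did not overlap, and Txnrd1 rose by 1.09 log2 (SE 0.13; adjusted p = 1.11e-05), with 0.92 in J (SE 0.18; adjusted p = 0.00109) and 1.26 in NHsd (SE 0.18; adjusted p = 0.000125). Over both substrains the rise was 0.60 above the median gene. The other 2 Txnrd1 probe sets lay at most at 2.44 on every array.

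Srxn1 (chr2:152105524-152111376), for the sulfiredoxin that repairs over-oxidized peroxiredoxins, read 5.84, 5.50 and 5.69 in J cerulein mice, against 4.63, 5.13 and 5.13 in J saline mice. It read 5.45, 5.76 and 5.57 in NHsd cerulein mice, against 5.09, 5.07 and 4.63 in NHsd saline mice. Every cerulein array again lay above every saline array. Srxn1 was 0.69 log2 higher (SE 0.13; adjusted p = 0.000529), which is 0.20 above the median gene. With the arrays shifted to equal medians its change was 0.11 (adjusted p = 0.537), and with quantile normalization 0.11 (adjusted p = 0.549), so the call depends on the scaling. The remaining 3 Srxn1 probe sets reached at most 2.76.

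Prdx1 (chr4:116685599-116700000) encodes an abundant cytosolic peroxiredoxin that removes hydrogen peroxide. Its 5 probe sets are shared with Gm21399, so their signal cannot be given to either gene, and they were neither tested nor counted. The brightest read 12.90, 12.74 and 12.72 in J cerulein mice, against 10.90, 11.06 and 11.00 in J saline mice. It read 12.50, 12.51 and 12.55 in NHsd cerulein mice, against 11.20, 10.71 and 10.92 in NHsd saline mice. On each of the 5 the cerulein arrays lay above the saline arrays, with mean differences of 1.30 to 1.93 log2.

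Neither subunit of the enzyme of glutathione synthesis was called higher. Glutamate-cysteine ligase, the rate-limiting enzyme, joins a catalytic subunit (Gclc, chr9:77754535-77794489) to a modifier subunit (Gclm, chr3:122245487-122267215) that raises its activity. Gclm read 6.58, 6.56 and 6.37 in J cerulein mice, against 7.20, 7.12 and 7.04 in J saline mice, without overlap, as for 9.51% of tested genes in this direction. In NHsd mice it read 7.03, 6.01 and 6.59 after cerulein, against 7.13, 6.98 and 6.76 after saline, where replicate 1 after cerulein lies among the controls. Gclm fell by 0.52 log2 over both substrains (SE 0.15; adjusted p = 0.00910). The change was -0.62 in J (SE 0.22; adjusted p = 0.0276) and -0.41 in NHsd (SE 0.22; adjusted p = 0.122), and -0.66 in NHsd without cerulein replicate 1 (adjusted p = 0.0168). In J the call ended when either of cerulein replicates 2 and 3 or any single saline array was left out (adjusted p = 0.0505 to 0.0808). A dimmer Gclm probe set, above log2 4 on 8 arrays, differed in sign, with a change of 0.20 (adjusted p = 0.395), so the fall rests on 1 probe set.

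Gclc read 5.48, 5.71 and 5.43 in J cerulein mice, against 5.75, 5.62 and 5.74 in J saline mice. It read 5.79, 5.62 and 5.70 in NHsd cerulein mice, against 6.24, 5.62 and 5.61 in NHsd saline mice. The groups overlapped, and the change of -0.14 did not pass (SE 0.12; 95% interval -0.41 to 0.13; adjusted p = 0.322). After a shift to equal medians it was -0.72 (adjusted p = 8.88e-05). The second Gclc probe set, between 4.29 and 5.87, gave a mean difference of -0.03, which joins opposite changes in the substrains. It averaged 4.94 in J cerulein mice against 5.49 in J saline mice. In NHsd mice it averaged 5.51 after cerulein against 5.03 after saline. The difference between both subunits on the same array is not altered by a constant shift of that array, and only its shift between groups has a meaning. Gclm minus Gclc was 0.85 to 1.10 log2 in J cerulein mice and 1.30 to 1.51 in J saline mice. It was 0.39 to 1.24 in NHsd cerulein mice and 0.89 to 1.37 in NHsd saline mice, where the ranges overlap.

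The enzymes that use glutathione differed from each other. Gpx2 (chr12:76792335-76795554), for a glutathione peroxidase best known from the gut epithelium, read 6.49, 5.55 and 5.12 in J cerulein mice, against 4.06, 4.05 and 4.57 in J saline mice. It read 5.40, 5.15 and 4.91 in NHsd cerulein mice, against 4.47, 4.39 and 4.60 in NHsd saline mice. No cerulein array lay under a saline array, although the J cerulein mice spread widely, with an SD of 0.70. Gpx2 rose by 1.08 log2 over both substrains (SE 0.20; adjusted p = 0.000482), or 0.59 above the median gene, and by 1.50 in J (SE 0.29; adjusted p = 0.000964). In NHsd it was 0.67 higher (SE 0.29) and not called (adjusted p = 0.0673), but passed with only the NHsd arrays in the fit (adjusted p = 0.00960), without J cerulein replicate 1 (0.0100) and without J cerulein replicate 3 (0.0373). All 3 settings keep the NHsd arrays, so the difference is the same and the estimate of the spread changes. Scaling took most of it away, with 0.08 at equal medians (adjusted p = 0.840) and 0.09 after quantile normalization (adjusted p = 0.815).

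Gstm1 (chr3:108012250-108017973), a mu-class glutathione S-transferase, read 7.43, 7.72 and 7.93 in J cerulein mice, against 8.18, 8.24 and 7.66 in J saline mice. It read 8.17, 7.88 and 8.23 in NHsd cerulein mice, against 7.80, 7.74 and 8.19 in NHsd saline mice. Its change of -0.08 was not called (SE 0.14; 95% interval -0.39 to 0.23; adjusted p = 0.641), and with equal medians it was -0.66 (adjusted p = 0.000792). Genes of the mu class are alike in sequence, and the Gstm1 signal may include that of its relatives. The next probe sets of the gene, at means of 7.66 and 5.80, changed by 0.03 and -0.10, and the last lay at most at 2.60. The one at 5.80 read the same 5.83 on all NHsd cerulein arrays and as the median of each treatment, so its change says little.

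Nqo1 and Hmox1, widely used as readouts of NRF2, gave no signal above log2 4 on any array. Nqo1 (chr8:107388225-107403205) stood at 2.39, the lowest value of the whole table, on all 12 arrays through its 1 probe set, so no difference could have been seen. Hmox1 (chr8:75093618-75100593) read 3.57, 3.72 and 3.55 in J cerulein mice, against 2.84, 2.78 and 2.84 in J saline mice. It read 3.40, 3.51 and 3.85 in NHsd cerulein mice, against 3.15, 3.19 and 2.78 in NHsd saline mice. The cerulein arrays lay above the saline arrays, but all values were under the filter and no fold is given. Without the filter limma called Hmox1 higher over both substrains, with a difference of 0.67 (SE 0.10; adjusted p = 0.000598 over 18194 genes), where 29.1% of all genes were called higher. The median change of the genes that passed the filter was 0.49, and no Hmox1 value under the other scalings is given here. Saline signals repeated between arrays, at 2.84 and at 2.78, so the SE may be too small.

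**Figure D2:**
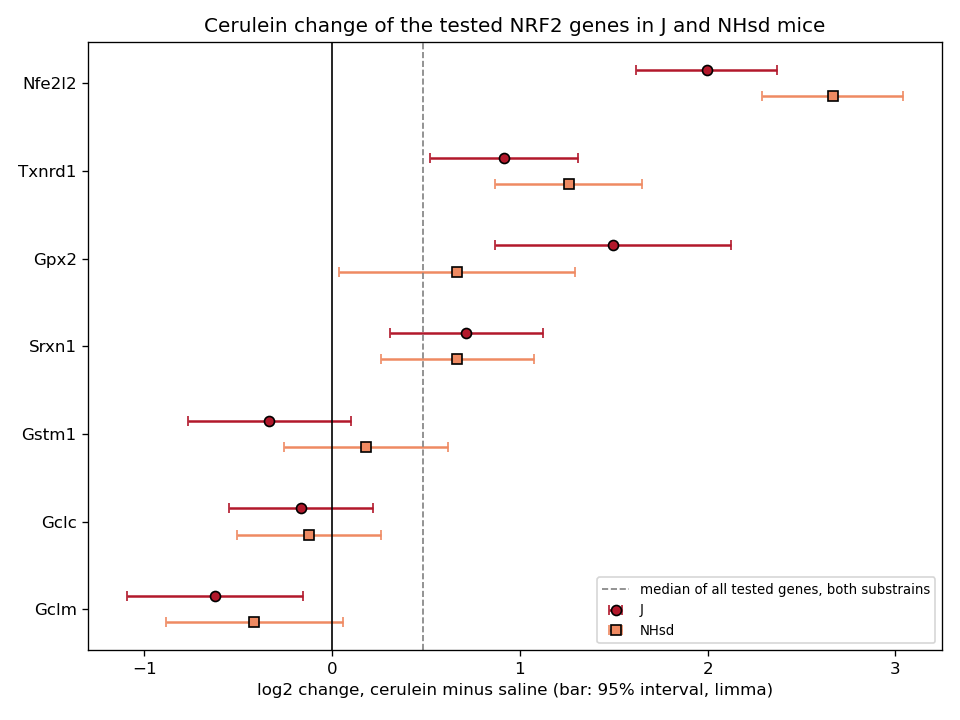
Log2 change after cerulein against saline (horizontal axis) of the 7 tested genes, for J (circles) and NHsd (squares), with 95% intervals from limma and a dashed line at 0.49, the median of all tested genes. Nfe2l2 has the highest value of the 7 genes in each substrain, 2.00 in J and 2.67 in NHsd, and the interval of Gclm in J lies under 0.

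The way the arrays are scaled bears on these calls. As deposited, 85.5% of all called genes were higher after cerulein, and with equal medians 42.4%. With equal medians 3 of the 7 genes were called higher (Nfe2l2, Txnrd1 and Gpx2) and 3 lower (Gclm, Gclc and Gstm1), and quantile normalization gave the same numbers. Nfe2l2 was 1.75 higher with equal medians and 1.77 with quantile normalization. In J the rise of Txnrd1 was not called with equal medians (0.34, adjusted p = 0.0995) or quantile normalization (0.37, adjusted p = 0.0708). Gclm changed by -1.10 and -1.08 over both substrains under these scalings.

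**Figure D3:**
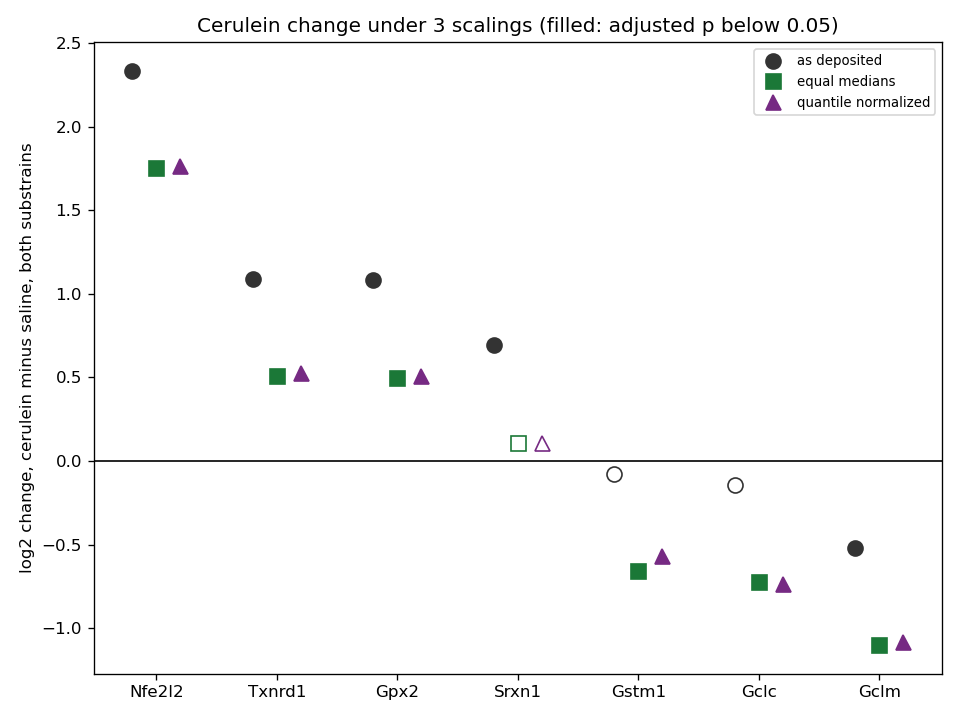
Log2 change after cerulein over both substrains (vertical axis) of the 7 tested genes under 3 scalings of the arrays, filled where the adjusted p was below 0.05. Nfe2l2, Txnrd1 and Gpx2 are filled above 0 and Gclm is filled below 0 under all 3, while Srxn1, Gclc and Gstm1 change call with the scaling.

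The second question was whether the substrains differ. J mice are known to carry a deletion in Nnt, whose product supplies mitochondrial NADPH for glutathione and thioredoxin reduction. Nnt averaged 8.67 ± 0.16 in J cerulein mice and 10.02 ± 0.11 in NHsd cerulein mice, and 8.78 ± 0.14 in J saline mice and 10.17 ± 0.17 in NHsd saline mice (SD, n = 3 each). J minus NHsd, it differed by -1.35 after cerulein (SE 0.14; limma adjusted p = 0.00116) and by -1.39 in saline (SE 0.14; adjusted p = 0.00244). Fitted with only the groups compared, the same differences were not called (limma adjusted p = 0.107 after cerulein and 0.0628 in saline). None of the 7 genes was called in either comparison or in the difference of the cerulein effects, and over all tested genes 0.223% were called after cerulein, 0.0588% in saline and 0.0118% for the difference of effects. These are 19, 5 and 1 genes, and leaving out single arrays gave 5 (without NHsd cerulein replicate 1) to 89 (without NHsd cerulein replicate 3) after cerulein, 1 to 9 in saline and 0 to 5 for the difference, with 0 in both substrain comparisons when only the groups compared were fitted. At an unadjusted p below 0.05 the limma counts were 0 of 7 after cerulein, 1 of 7 in saline and 1 of 7 for the difference of effects, and Nfe2l2 was the gene in both cases. All tested genes passed this limit in 9.41%, 6.42% and 7.03% of cases in the same order.

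Nfe2l2 in saline averaged 5.64 ± 0.17 in J mice and 4.80 ± 0.12 in NHsd mice (SD, n = 3 each), and the arrays did not overlap, as for 8.41% of tested genes in this direction. The difference of 0.84 (SE 0.17) had an unadjusted limma p of 0.000367 and an adjusted p of 0.260, with 0.0624 to 0.849 over the alternatives. After cerulein both substrains reached similar signals, with a J minus NHsd difference of 0.16 (95% interval -0.21 to 0.54; limma adjusted p = 0.734). The cerulein effect was smaller in J by 0.67 (SE 0.24; 95% interval -1.20 to -0.14), and this difference did not pass after adjustment (limma adjusted p = 0.702). For Gpx2 the effect in J exceeded that in NHsd by 0.83 (95% interval -0.06 to 1.72; adjusted p = 0.714), and by 0.44 without J cerulein replicate 1. For Gstm1 the difference was -0.52 (95% interval -1.13 to 0.10; adjusted p = 0.719). For Srxn1 and Gclc the intervals were -0.53 to 0.62 and -0.58 to 0.50, so differences of these sizes cannot be told from none with 3 arrays per group. With the second Gclc probe set the difference was -1.04, outside that interval and also not called. The intervals of Txnrd1 and Gclm were -0.90 to 0.21 and -0.87 to 0.46.

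Other genes of the pathway were read from lists of 110 genes, of which 100 had a probe set of their own and 80 were tested. Over both substrains 45 rose, 13 fell and 22 did not pass, against 59.4% higher and 10.1% lower among all tested genes, and their median change of 0.47 was close to the general 0.49. At equal medians the counts were 22 higher and 30 lower, and after quantile normalization 25 and 28. The rises counted as deposited, here and by list below, include Mafg, Gpx7, Gsta4, Hp and Akr1b8. None of their saline signals exceeded log2 4, so they passed the filter through cerulein arrays alone, which favours a rise. Of 8 regulators of NRF2, 4 rose and 1 fell, and 2 rose and 2 fell under each of the other scalings. Mafg, a small MAF partner, was at least 1.22-fold higher from saline signals all under log2 4, and Bach1, the repressor that competes for the same element, rose by 1.17 (SE 0.15). Sqstm1, the autophagy adaptor p62 that binds KEAP1, was 0.46 higher (SE 0.12) and Mafk fell by 0.69 (SE 0.13). The rise of Sqstm1 was not called with equal medians, where its change was -0.12 (adjusted p = 0.344).

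Among 6 genes of glutathione supply 2 rose and 3 fell, and 1 rose and 4 fell under each of the other scalings. Ggct, which cleaves gamma-glutamyl dipeptides in glutathione turnover, rose by 1.33 (SE 0.18), and glutathione reductase (Gsr) by 0.49 (SE 0.11), where Gsr was not called with equal medians or quantile normalization. Chac1, which degrades glutathione, fell by 1.14 (SE 0.35), and Cbs and Cth, which make cysteine from homocysteine, fell by 0.92 (SE 0.09) and 0.47 (SE 0.12). All 5 other glutathione peroxidases rose, 3 of them with equal medians. Gpx3, the secreted form, rose by 2.36 (SE 0.23), Gpx8 of the endoplasmic reticulum by 1.73 (SE 0.22), and Gpx7 was at least 1.18-fold higher. Of 14 other glutathione S-transferases 4 rose and 5 fell (2 and 8 at equal medians, 3 and 8 after quantile normalization). The microsomal Mgst1 rose by 2.14 (SE 0.17), Gsta4 was at least 1.42-fold higher, and Gstm5 rose by 0.90 (SE 0.16) but was not called with equal medians (0.32, adjusted p = 0.0665). Gstk1 fell by 0.79 (SE 0.15), Gstm2 by 0.55 (SE 0.10) and Gstt1 by 0.55 (SE 0.14).

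Among 16 other genes of thioredoxins and peroxiredoxins there were 7 rises and 4 falls, or 4 and 9 at equal medians. Prdx2, a second cytosolic peroxiredoxin, rose by 1.44 (SE 0.11) and Txnip, the inhibitor of thioredoxin, by 1.24 (SE 0.16). Sesn3 rose by 1.52 (SE 0.23), a size that is inexact because its mean signal after saline was 3.91. The methionine sulfoxide reductase gene Msrb1 fell by 1.12 (SE 0.17), Prdx4 of the endoplasmic reticulum by 0.58 (SE 0.10) and Txnrd3 by 0.54 (SE 0.13) to a mean of 3.85. None of Sod1, Sod2, Cat and Ccs, the tested superoxide dismutase and catalase genes, passed the limma test over both substrains, where Sod2 alone had an unadjusted p under 0.05, with a change of -0.22 (SE 0.10; limma adjusted p = 0.0574). Within single substrains, as deposited, 1 of the 4 was called higher in J and 1 in NHsd. Over both substrains all 4 were called lower with equal medians, and 3 with quantile normalization.

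Of 6 genes of haem breakdown and iron storage 5 rose, 2 of them with equal medians, where 1 fell. The iron exporter gene Slc40a1 rose by 2.17 (SE 0.23), Blvrb, which reduces biliverdin, by 1.29 (SE 0.21), and haptoglobin (Hp) was at least 1.04-fold higher, a rise not called under either other scaling. Of 14 genes of quinone and carbonyl detoxification 12 rose and 0 fell (7 and 1 with equal medians). Ptgr1, which reduces leukotriene and prostaglandin metabolites, rose by 2.41 (SE 0.15), Cbr3, a carbonyl reductase, by 2.36 (SE 0.21), with a saline mean of 3.52 that makes the size inexact, and the aldo-keto reductase gene Akr1b8 was at least 1.19-fold higher. Of 7 genes of NADPH supply 6 rose (1 rose and 1 fell with equal medians). Pgd of the pentose phosphate pathway rose by 1.63 (SE 0.13), Tkt by 0.79 (SE 0.11) and malic enzyme (Me1) by 0.77 (SE 0.17), of which Tkt and Me1 were not called with equal medians.

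**Figure D4:**
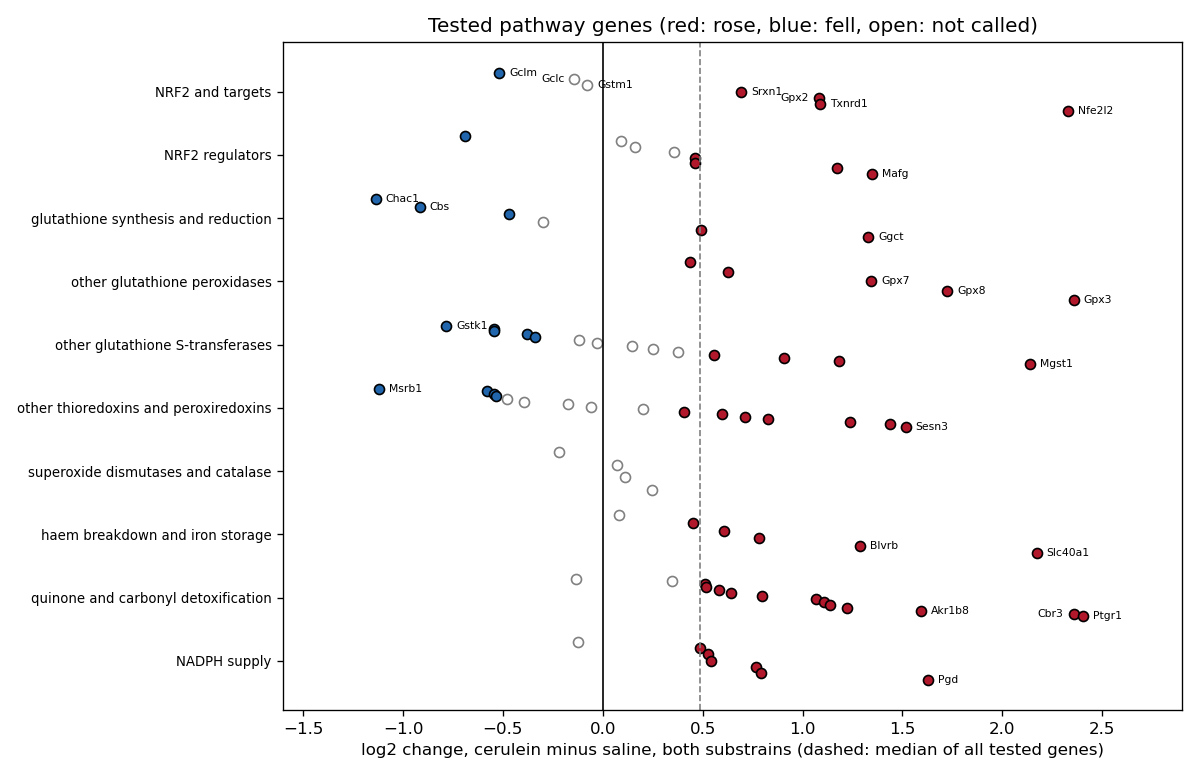
Log2 change after cerulein over both substrains (horizontal axis) of each tested gene, by list (vertical axis), red where it rose, blue where it fell and open where it was not called, with a dashed line at 0.49, the median of all tested genes. Quinone and carbonyl genes reach 2.41 (Ptgr1), the superoxide dismutase and catalase genes are all open, and glutathione supply reaches down to -1.14 (Chac1).

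Markers of cell types moved with the same arrays. The pancreas label held, with acinar markers among the brightest signals: Cela3b averaged log2 16.0 after cerulein and 16.2 after saline, and Clps 15.5 and 15.8. All 9 tested acinar markers fell, and the log2 of their summed signal was 18.24 to 18.51 on cerulein arrays and 18.70 to 18.74 on saline arrays. With equal medians all 9 fell as well, with a median change of -0.91 against -0.33 as deposited. With quantile normalization 3 of the 9 were called lower. That scaling gives the brightest probe sets nearly the same values on every array, so it cannot show whether such markers fell. All 17 macrophage markers rose, by a median of 3.23, with Lyz2 3.72 (SE 0.20) and Ctss 3.70 (SE 0.21) higher, and a summed signal of 12.97 to 13.71 against 9.62 to 10.37. All 10 tested fibroblast and stellate cell markers rose (9 with equal medians), among them Dcn by 1.64 (SE 0.19) and Col3a1 by 3.14 (SE 0.24), with 13.14 to 14.46 against 11.21 to 11.93. Of 6 duct markers 4 rose and 1 fell, with Epcam 2.28 higher (SE 0.13) and Muc1 1.11 lower (SE 0.12), a summed signal of 10.48 to 10.94 against 9.89 to 10.002, and Cftr and Onecut1 under log2 4 on every array.

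All 6 islet markers rose (2 with equal medians, 4 with quantile normalization), with Ins2 0.47 (SE 0.08) and Iapp 0.44 (SE 0.10) higher, and 14.37 to 15.01 on cerulein arrays against 13.97 to 14.33 on saline arrays. Of 4 tested hepatocyte markers 2 rose, Ttr, which islets also make, by 1.56 (SE 0.16), and Alb by 1.91. Alb was dimmer than Cyp2e1, so the size of its rise is inexact. Cyp2e1 was 0.24 higher (SE 0.26) and not called. The summed signal of the hepatocyte markers was 10.78 to 11.90 against 9.49 to 10.39, most of it from Ttr, which alone read 10.66 to 11.83 against 9.32 to 10.33. Apoa1, Fgb and Tat were under log2 4 on every array. Of 5 endothelial markers 3 rose (0 rose and 1 fell with equal medians), with Esam 0.37 (SE 0.10) and Tek 0.73 (SE 0.16) higher, 7.02 to 7.65 against 6.90 to 7.11, and Pecam1 and Cdh5 under log2 4. Of the erythroid markers Slc4a1 alone was tested, 1.14 higher (SE 0.51) and not called, a size that is inexact with a saline mean of 3.98, with Hba-a1 and Epb42 under log2 4 and summed signals that overlap, 5.29 to 6.44 against 4.80 to 6.87. The part of these cell types in the changes of Nfe2l2 and its targets was not tested.

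**Figure D5:**
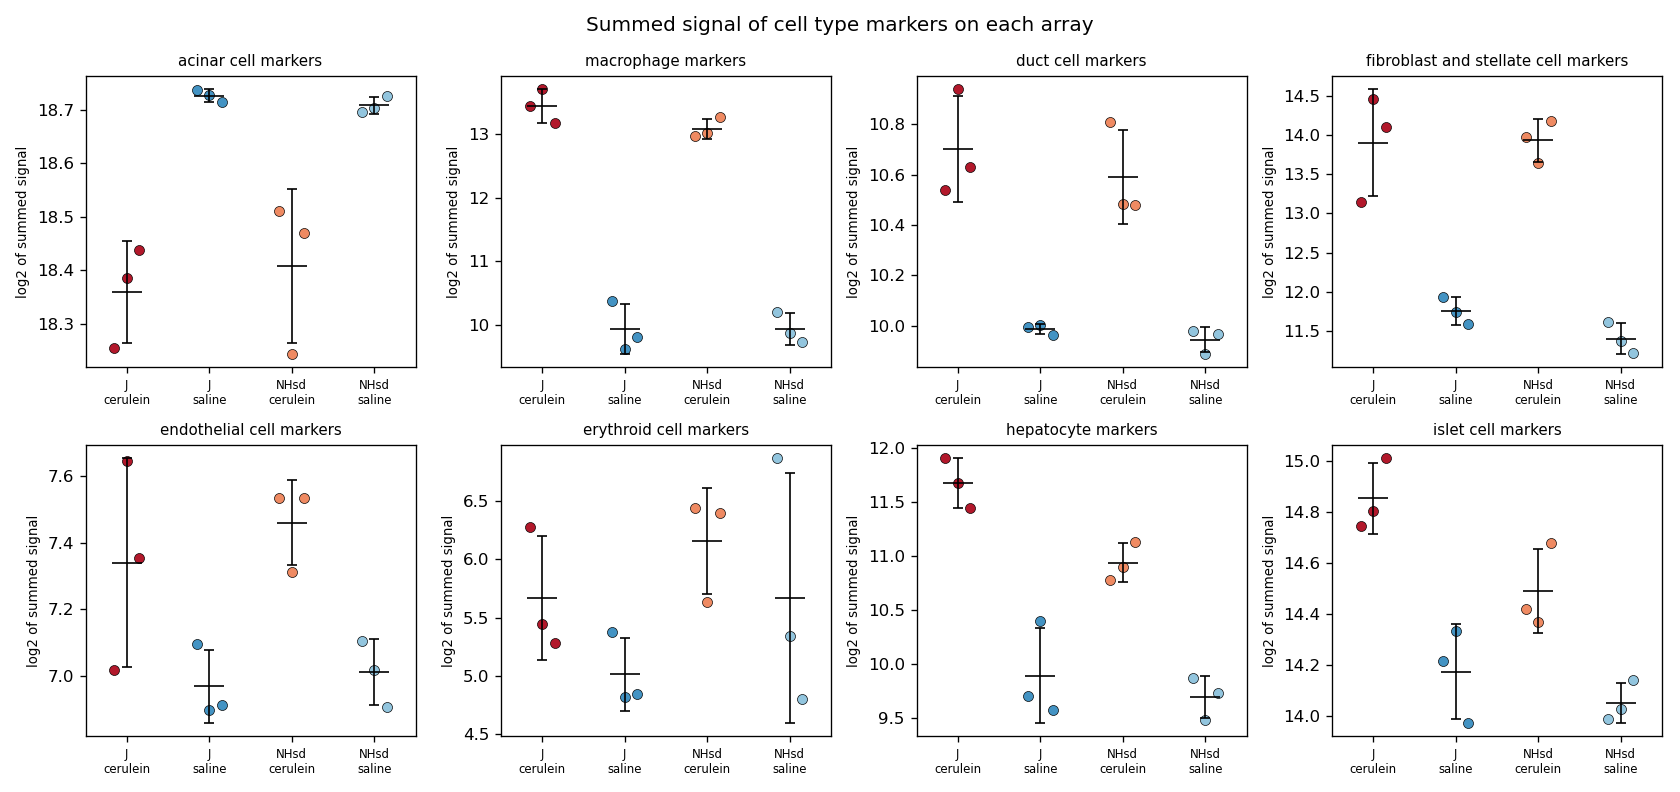
Log2 of the summed signal (vertical axis, a separate range per panel) of each list of cell type markers on the 12 arrays, by group, where points are mice and bars give the mean ± SD of 3. Macrophage markers lie between 12.97 and 13.71 on the cerulein arrays and between 9.62 and 10.37 on the saline arrays, and acinar markers between 18.24 and 18.51 and between 18.70 and 18.74.

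The genes most like each tested member over the 12 arrays were found by Pearson correlation, as a description, since all points share the contrast of treatments. Nfe2l2 was most like Btaf1 (r = 0.993) and Lhfp (0.993), and Txnrd1 most like Uhmk1 (0.992) and Lbr (0.990). Gpx2 was most like the chemokine gene Cxcl16 (0.975) and Tmem205 (0.969), and Srxn1 most like Ctps (0.964) and Pwp1 (0.956). Gclm was most like Marchf5 (0.926) and the acinar elastase gene Cela2a (0.916), Gstm1 most like Cyb5b (0.899) and Magt1 (0.894), and Gclc most like Smad7 (0.858) and Fam160a2 (0.851).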

How the data were processed

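Gene expression of pancreas was measured on 12 arrays, 1 per mouse. Values were deposited as log2 signal per probe set. GCRMA and Partek are named, with no version, per the submitters' processing notes; further steps are not given in the sources used here. Of 45101 probe sets, 34958 carried 1 gene symbol in the platform annotation, 932 several and 9211 none; 34754 matched RefSeq by Entrez number.

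A probe set was kept above log2 4 on at least 3 arrays, and the brightest kept one stood for its gene, 8505 of 18194 genes. All 12 arrays were fitted in limma 3.58.1 (R 4.3.3) with 1 mean per group, 8 residual degrees of freedom and an intensity trend, two-sided, with Benjamini-Hochberg adjustment over all 8505 genes. The pipeline was tested on simulated data. The log2 4 limit served as floor for changes given as "at least". Number of arrays limits the precision, with a median SE of 0.20 between groups of 3. Promoters were searched and figures drawn in Python 3.11.15 (numpy 2.4.6, pandas 2.3.3, matplotlib 3.10.9).

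The members and lists were chosen with earlier results of these data known. The text names all members, up to 3 risen and 3 fallen genes of each pathway list by size of change, genes called between substrains, the 2 brightest tested markers per cell type, and the 2 genes most like each member. Alb was named in addition. Alternatives were equal medians, quantile normalization, no filter, a filter at log2 6, no trend, robust moderation, mean or second brightest probe sets, all probe sets tested, a fit restricted to the compared groups, the replicate number as a block, and leaving out each array.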

Additional observations from a re-analysis of the deposited data

How the results depend on the processing

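Over both substrains 4 genes were called higher and 1 lower. The lower count was 3 with equal medians and 3 with quantile normalization. It was 0 with probe sets averaged per gene and 0 with the second brightest probe set. The higher count was 3 under each of these scalings, and 2 with a filter at log2 6, which leaves out Gclc, Srxn1 and Gpx2. In NHsd 3 were higher and 0 lower. Equal medians and quantile normalization each gave 2 higher and 2 lower in NHsd, and the filter at log2 6 gave 2 higher. In J 4 were higher and 1 lower. Equal medians and quantile normalization each gave 2 higher and 3 lower there, the filter at log2 6 gave 2 higher, and no filter, the mean of probe sets and the second brightest probe set each gave 0 lower. Leaving out single arrays gave 4 to 4 higher and 1 to 1 lower over both substrains, 3 to 4 and 0 to 1 in NHsd, and 4 to 4 and 0 to 1 in J. The J minus NHsd comparisons and the difference of effects stayed at 0 called genes in every setting run. With the second brightest probe set Gclm was 0.20 higher over both substrains and 0.33 higher in J, against falls with the brightest one. With the replicate number as a block the counts were 4 higher and 1 lower over both substrains, 3 and 0 in NHsd, and 4 and 1 in J. Same-numbered arrays correlated above 0.1 in 6 of 18 pairs (-0.16 to 0.34), so the numbers were not taken as pairing mice. Of the values of single genes under the alternatives, 843 kept sign and call, 16 lost the call, 16 gained it and 35 turned in sign, 33 of these with no call on either side. With the second brightest probe set Gclm also turned in NHsd (0.071), for J minus NHsd after cerulein (0.014), in saline (-0.24) and for the difference of effects (0.26), Gclc in NHsd (0.49) and in saline (0.47), and Gstm1 over both substrains (0.034). With probe sets averaged per gene Gclc turned in NHsd (0.18) and in saline (0.17), and Gclm in saline (-0.040) and for the difference of effects (0.025). Gstm1 in NHsd was -0.41 at equal medians and -0.30 after quantile normalization, and Srxn1 for J minus NHsd in saline -0.039 and -0.017. The other turns came from leaving out single arrays, where Gclc in NHsd ranged over -0.23 to 0.088. J minus NHsd in saline, Gclc ranged over -0.23 to 0.088 and Srxn1 over -0.12 to 0.20. After cerulein Gclm ranged over -0.31 to 0.20 and Txnrd1 over -0.13 to 0.046. For the difference of effects the ranges were -0.25 to 0.063 for Gclc, -0.47 to 0.035 for Gclm and -0.12 to 0.20 for Srxn1. With the block, all tested genes called J minus NHsd numbered 7 after cerulein, against 19, and 2 in saline, against 5, and with only the groups compared 0 in each. Over all tested genes equal medians gave 2262 higher and 3072 lower, and quantile normalization 2384 and 2905, against 5049 and 855 as deposited. Nqo1, at the lowest value of the table on every array, allows no statement on change.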
